A study of Mus musculus with 8 samples.

Results

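The genes of the mitochondrial ribosomal proteins were described in mouse lung with and without the nitric oxide synthases. A gene was taken as a member when its symbol was Mrpl or Mrps followed by a digit and its mean level over the 8 libraries was at least 1 count per 1000000 reads (CPM). By that rule 78 of the 15728 listed genes were members. The rule itself used no difference between genotypes, but the family was chosen with earlier results of these data known. Of the 78, 49 encoded proteins of the large subunit, counting Mrps18a and Mrps30, which despite their symbols sit there, and 26 encoded proteins of the small subunit. The other 3 were Mrps36, which belongs to the oxoglutarate dehydrogenase complex of the citric acid cycle, and the pseudogenes by symbol Mrps36-ps1 and Mrpl23-ps1. The name pattern took 80 symbols in all, and the 2 below the level were Mrps36-ps2 at a mean of 0.235 CPM and Mrpl48-ps at 0.234 CPM. The lowest member above it was Mrps33 at 7.36 CPM, far from the threshold.

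Lungs of 4 wild type mice and 4 triply n/i/eNOSs-/- mice were profiled by CAGE (cap analysis of gene expression), a method that reads RNA from its capped 5′ end and so counts each transcript once, at its start. Levels of different genes can therefore be set side by side without a correction for gene length. The wild type group was C57BL/6J, unexposed and 4 weeks old. The knockout group lacked all 3 nitric oxide synthases (neuronal, inducible and endothelial), with the strain background also given as C57BL/6J, and was likewise unexposed and 4 weeks old. The deletion is given for the whole animal and not for 1 cell type, and neither sex nor litter is given. The p-values measure the spread between these 8 samples. Since whole lung was measured, fewer cells of a type and less RNA per cell cannot be told apart.

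Mitochondria carry ribosomes of their own, which translate the few messages encoded by mitochondrial DNA, all for subunits of the respiratory chain and ATP synthase. The ribosomal RNAs come from mitochondrial DNA, whereas every protein of both subunits is encoded in the nucleus, made in the cytosol and imported. Part of these proteins descend from those of bacterial ribosomes and part were added in the mitochondrial lineage.

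The promoters of the 3 members with the smallest adjusted p in each direction are shown, because the differences below were counted at transcript starts. They are the 250 bases before to 50 after the start given by RefSeq on GRCm38.p6, which is not the build of the reads, and whether the CAGE starts lie there was not tested. Capitals mark matches on either strand to letters associated with 4 promoter factors. These are CCGGAAG (the ETS family), GCGCATGC (NRF1, a regulator of nuclear genes for mitochondrial proteins), CCAAT (NF-Y) and AAGATGGC (YY1).
Mrps36, higher in the knockout, chr13:100744610-100744909, minus strand: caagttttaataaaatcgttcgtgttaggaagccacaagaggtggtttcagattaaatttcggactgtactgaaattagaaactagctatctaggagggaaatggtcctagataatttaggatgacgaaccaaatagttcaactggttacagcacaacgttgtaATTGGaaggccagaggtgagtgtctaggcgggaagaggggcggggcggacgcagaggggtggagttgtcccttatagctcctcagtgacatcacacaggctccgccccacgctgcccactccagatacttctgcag
Mrps21, higher in the knockout, chr3:95871465-95871764, minus strand: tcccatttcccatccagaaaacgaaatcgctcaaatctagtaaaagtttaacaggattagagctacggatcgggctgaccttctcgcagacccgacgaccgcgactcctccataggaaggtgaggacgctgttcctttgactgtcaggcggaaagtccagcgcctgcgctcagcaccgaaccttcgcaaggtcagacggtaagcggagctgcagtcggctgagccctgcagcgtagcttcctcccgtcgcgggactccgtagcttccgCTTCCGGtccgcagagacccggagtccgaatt
Mrpl52, higher in the knockout, chr14:54426659-54426958, plus strand: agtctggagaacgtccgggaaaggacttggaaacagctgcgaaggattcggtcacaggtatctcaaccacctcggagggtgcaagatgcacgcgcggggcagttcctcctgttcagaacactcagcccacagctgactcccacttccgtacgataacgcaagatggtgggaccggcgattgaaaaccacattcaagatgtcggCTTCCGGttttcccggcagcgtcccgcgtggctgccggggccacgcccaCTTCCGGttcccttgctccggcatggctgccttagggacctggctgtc
Mrpl22, lower in the knockout, chr11:58171414-58171713, plus strand: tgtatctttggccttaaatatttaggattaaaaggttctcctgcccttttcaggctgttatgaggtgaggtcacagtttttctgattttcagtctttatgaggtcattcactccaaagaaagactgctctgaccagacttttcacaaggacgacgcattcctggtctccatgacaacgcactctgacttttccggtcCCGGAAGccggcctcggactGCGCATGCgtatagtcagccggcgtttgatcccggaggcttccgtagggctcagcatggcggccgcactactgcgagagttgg
Mrpl44, lower in the knockout, chr1:79775768-79776067, plus strand: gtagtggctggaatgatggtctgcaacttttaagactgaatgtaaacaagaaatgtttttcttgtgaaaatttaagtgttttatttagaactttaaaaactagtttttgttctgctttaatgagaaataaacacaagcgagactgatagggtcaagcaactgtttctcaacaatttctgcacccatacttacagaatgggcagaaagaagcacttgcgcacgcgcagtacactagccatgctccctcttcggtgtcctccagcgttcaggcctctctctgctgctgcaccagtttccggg
Mrpl55, lower in the knockout, chr11:59202236-59202535, plus strand: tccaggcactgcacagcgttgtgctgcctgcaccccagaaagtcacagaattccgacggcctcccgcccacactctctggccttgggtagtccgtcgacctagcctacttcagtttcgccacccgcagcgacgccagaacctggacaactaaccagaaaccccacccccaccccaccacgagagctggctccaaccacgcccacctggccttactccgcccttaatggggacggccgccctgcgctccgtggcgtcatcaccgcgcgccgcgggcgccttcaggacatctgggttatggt
Mrpl52 held the ETS letters at 2 places, and Mrps21 and Mrpl22 held them at 1 place each. Mrpl22 also held the NRF1 letters, and Mrps36 held only a CCAAT match. The promoters of Mrpl44 and Mrpl55 held none of the 4.

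Promoters were found for 67 of the 78 members. The ETS letters stood in 24 of these (35.8%), against 19% of the 9313 tested genes with a promoter and 9.93% of all 27025 genes with one. A gene with several promoters was counted once, as a match if any of them held the letters. The YY1 letters stood in 12 members (17.9%), against 4.91% of the tested genes and 3.19% of all genes with a promoter. These 12 members included Mrps24, Mrpl36, Mrps11, Mrps18a and Mrps12. For the NRF1 letters the count was 8 (11.9%), against 5.76% and 3.05%. CCAAT was found in 27 members (40.3%), close to the 42% of tested genes and the 41.1% of all genes with a promoter. The TATA box letters TATAAA were found in 5 members (7.46%), against 8.97% and 15.7%, and the GC box letters GGGCGG in 33 (49.3%), against 68.2% and 38.2%. The last 3 letters of the ETS match are the first 3 of the YY1 match, but 0 member promoters held 1 stretch matching both. The ETS letters were present in 8 of the 21 members with a promoter that were called higher, in 3 of the 7 called lower and in 13 of the 39 not called. These shares describe letters in a window of fixed length and no binding was measured.

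Library totals were 15598154 to 18593913 reads in wild type and 13014134 to 15096188 reads in the knockout, so every knockout library was shallower than every wild type library. A count of 3 reads corresponded to 0.161 to 0.231 CPM, well under the level of every member. Of the deleted genes, Nos3, the endothelial synthase, was counted at 18.2, 22.8, 19.8 and 18.6 CPM in wild type lungs and at 5.56, 8.32, 8.83 and 6.76 CPM in the knockout. That is a log2 fold change of -1.38 (SE 0.14, limma adjusted p = 4.58e-05) without overlap; no source used here says whether its CAGE start lies inside the deleted part, so it is a weak check of the labels. Nos1 and Nos2 were not analysed here.

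Transcripts of the family made up a larger share of the lung's CAGE reads in the knockout. The levels of the 78 members summed to 4836, 4820, 4810 and 4669 CPM in the wild type libraries 1 to 4 and to 4970, 5296, 5491 and 5256 CPM in the knockout libraries 1 to 4. Every knockout sum lay above every wild type sum, and the means were 4784 ± 77.4 and 5253 ± 215 CPM (SD, n = 4), a ratio of 1.098. In the knockout 25 of the 78 members were higher and 7 were lower by limma on log2(CPM + 0.5) at an adjusted p under 0.05, and 46 were not called. Over all 14065 genes tested, 16.6% were called higher and 14.3% lower, 30.9% together. The members' shares were 32.1% and 8.97%. The log2 fold change was above 0 for 51 of the 78 members, against 51.6% of all genes, and its median was 0.08 against 0.01 over all genes tested. No member differed by as much as 1 on the log2 scale, and the values ran from -0.56 for Mrpl22 to 0.50 for Mrps36. The 4 knockout values lay above all 4 wild type values in 26 members, against 16.8% of all genes tested, and below all of them in 6, against 14.3% (31.2% in either direction). On reads recovered from the CPM, edgeR called 25 members higher and 8 lower, against 16% and 16.5% of genes, 32.5% together. DESeq2 gave the same 2 counts, against 15.6% and 16.1% of genes, 31.7% together.

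**Figure D1:**
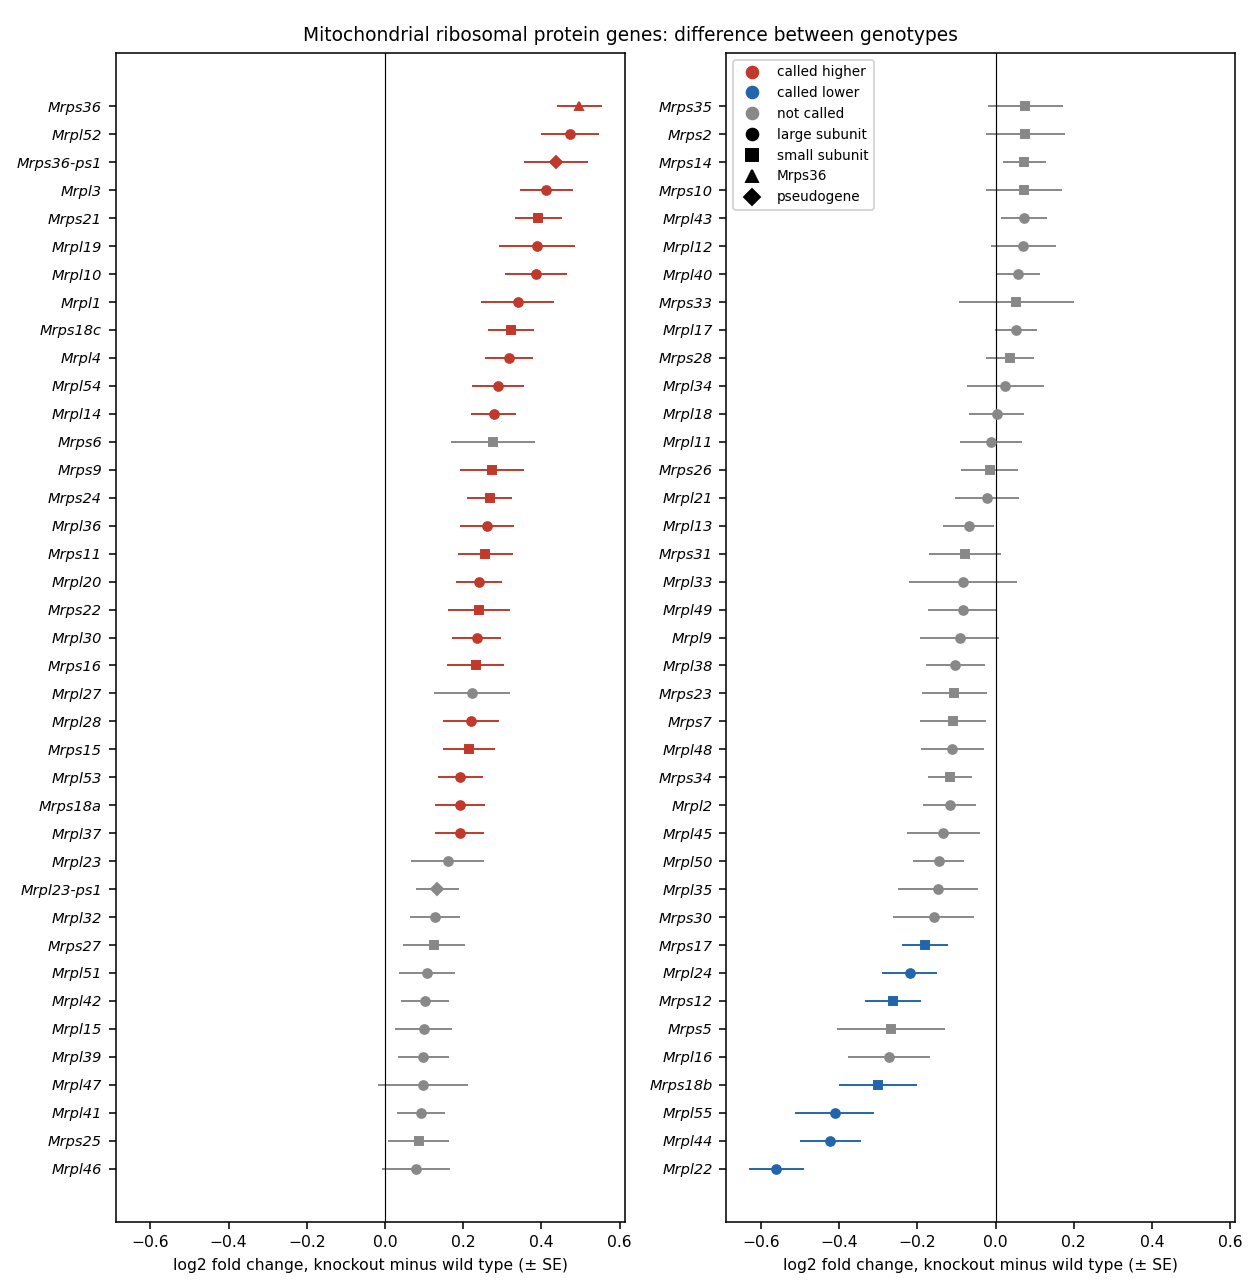
Log2 fold change (knockout minus wild type, horizontal axis) with its standard error for each of the 78 members, in order of size. Red marks the 25 members called higher, blue the 7 called lower and grey the 46 not called, and the symbol gives the subunit. The values run from 0.50 for Mrps36 to -0.56 for Mrpl22.

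Both subunits had members called in both directions. Of the 49 large subunit genes 15 were called higher and 4 lower, with a median log2 fold change of 0.08. Of the 26 small subunit genes 8 were called higher and 3 lower, also with a median of 0.08. The summed level of the large subunit genes was 3169 ± 36.7 CPM (SD, n = 4) for wild type and 3478 ± 172 CPM for the knockout, a ratio of 1.098. For the small subunit the sums were 1361 ± 31.7 and 1476 ± 48.7 CPM, a ratio of 1.085. Within each subunit the 4 knockout sums lay above the 4 wild type sums. Large divided by small was 2.33 ± 0.03 in wild type and 2.36 ± 0.07 in the knockout, and these values overlapped.

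**Figure D2:**
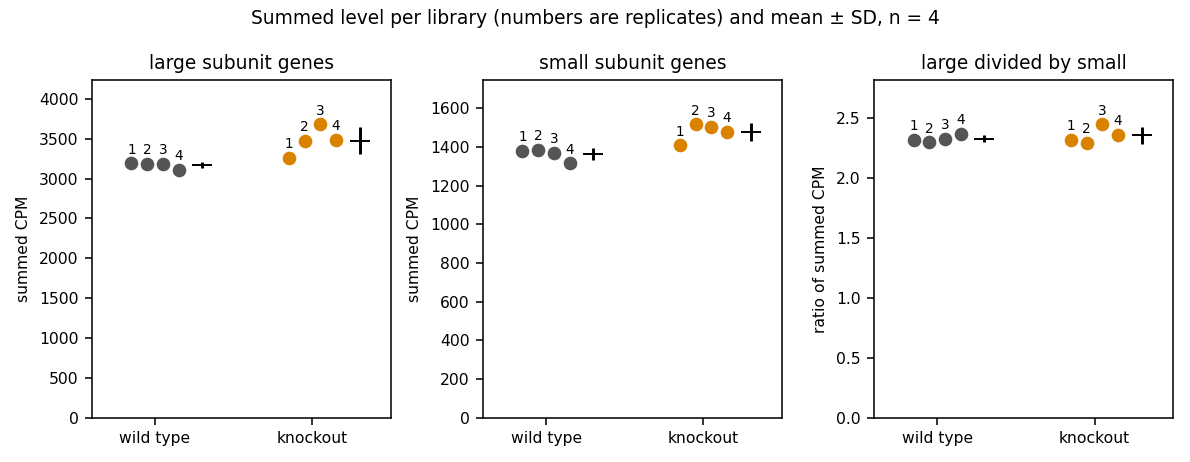
Summed CPM of the 49 large subunit genes (left) and the 26 small subunit genes (middle) and their ratio (right) in each library, from 0 on the vertical axes, with mean ± SD beside the points. Knockout sums sit above wild type sums in both subunits, knockout library 1 lowest of them at 3261 and 1408 CPM, and the ratios overlap.

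A single gene carried much of the summed difference in the large subunit. Mrpl52 alone gave 130.0 CPM of the difference of 309.5 CPM between the mean sums, and without it the sums were 2839 ± 35.5 and 3018 ± 139 CPM, a ratio of 1.063. Even then the lowest knockout sum, 2868 CPM, lay above the highest wild type sum, 2864 CPM, though only just. Knockout library 1 was the lowest of the knockout libraries for 37 of the 78 members, and wild type library 4 was the lowest of the wild type libraries for 39.

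Mrpl52, a large subunit protein without a bacterial counterpart, was the most abundant member. Its level was 348, 324, 321 and 327 CPM in the wild type libraries 1 to 4 and 393, 471, 479 and 497 CPM in the knockout libraries 1 to 4. All knockout values lay above all wild type values, and the wild type and knockout means were 330.1 ± 12.3 and 460.1 ± 45.9 CPM, with a log2 fold change of 0.47 (SE 0.07, adjusted p = 0.000983). Mrpl3, whose bacterial relative reaches towards the peptidyl transferase centre, had 47.2, 44.1, 43.8 and 42.3 CPM in wild type lungs and 54.4, 62.4, 60.9 and 59.3 CPM in the knockout. The groups stood apart here too, by 0.41 on the log2 scale (SE 0.07, adjusted p = 0.00114). Mrpl10, the protein at the base of the flexible stalk that carries Mrpl12, stood at 40.1, 41.2, 38.5 and 40.6 CPM in wild type lungs and 45, 54.1, 56.5 and 55.7 CPM in the knockout. Knockout library 1 was the closest to wild type, and the log2 fold change was 0.39 (SE 0.08, adjusted p = 0.00425). Mrpl12 itself had a log2 fold change of 0.07 (adjusted p = 0.547). Mrpl4, a protein near the exit tunnel in the bacterial ribosome, was counted at 81.5, 80.9, 89.8 and 89.6 CPM in wild type lungs and 108, 110.2, 101 and 107 CPM in the knockout. All knockout values lay above all wild type values, and the log2 fold change was 0.32 (SE 0.06, adjusted p = 0.00323).

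Mrps21, a small subunit protein with a bacterial relative, had 94.9, 98.1, 97.5 and 100.1 CPM in wild type lungs and 119, 127, 131 and 138 CPM in the knockout. The wild type values spanned only a few CPM, all knockout values were higher, and the log2 fold change was 0.39 (SE 0.06, adjusted p = 0.000834). Mrps18c is 1 of 3 mammalian genes related to the bacterial protein S18, and its level was 156, 153, 145 and 154 CPM in wild type lungs and 178, 191, 189 and 203 CPM in the knockout. It was higher in all 4 knockout libraries than in any wild type library, by 0.32 on the log2 scale (SE 0.06, adjusted p = 0.00216). The 3 related genes did not move together. Mrps18a was higher by 0.19 (adjusted p = 0.0424), while Mrps18b was lower, with a log2 fold change of -0.30 (adjusted p = 0.0397). A near-identical copy of the 5′ end exists for Mrps18c (Gm15946) and Mrps18b (Gm13552), and Mrps18a overlaps Rsph9, so their values could include reads of other loci.

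Mrps36 had the largest positive difference of all members, although the protein is not part of the ribosome. Its values were 40.8, 39.5, 42.1 and 39.9 CPM in wild type lungs and 55.9, 58.7, 56.7 and 58.5 CPM in the knockout. The groups were far apart relative to their spread, with a log2 fold change of 0.50 (SE 0.06, adjusted p = 0.000138). The pseudogene Mrps36-ps1, whose start is nearly identical, showed 30.4, 27.7, 29.3 and 24.6 CPM in wild type lungs and 37.2, 41.1, 38.9 and 35 CPM in the knockout. These also did not overlap, and the log2 fold change was 0.44 (SE 0.08, adjusted p = 0.00287). Reads of these loci could have been divided between them by the authors' assignment, so their sum is the safer value. Together with Mrps36-ps2 they summed to 69.0 ± 3.19 CPM in wild type lungs and 95.6 ± 3.18 CPM in the knockout, a ratio of 1.386. Leaving out Mrps36 and both pseudogenes, 23 of 75 members were called higher and 7 lower.

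**Figure D3:**
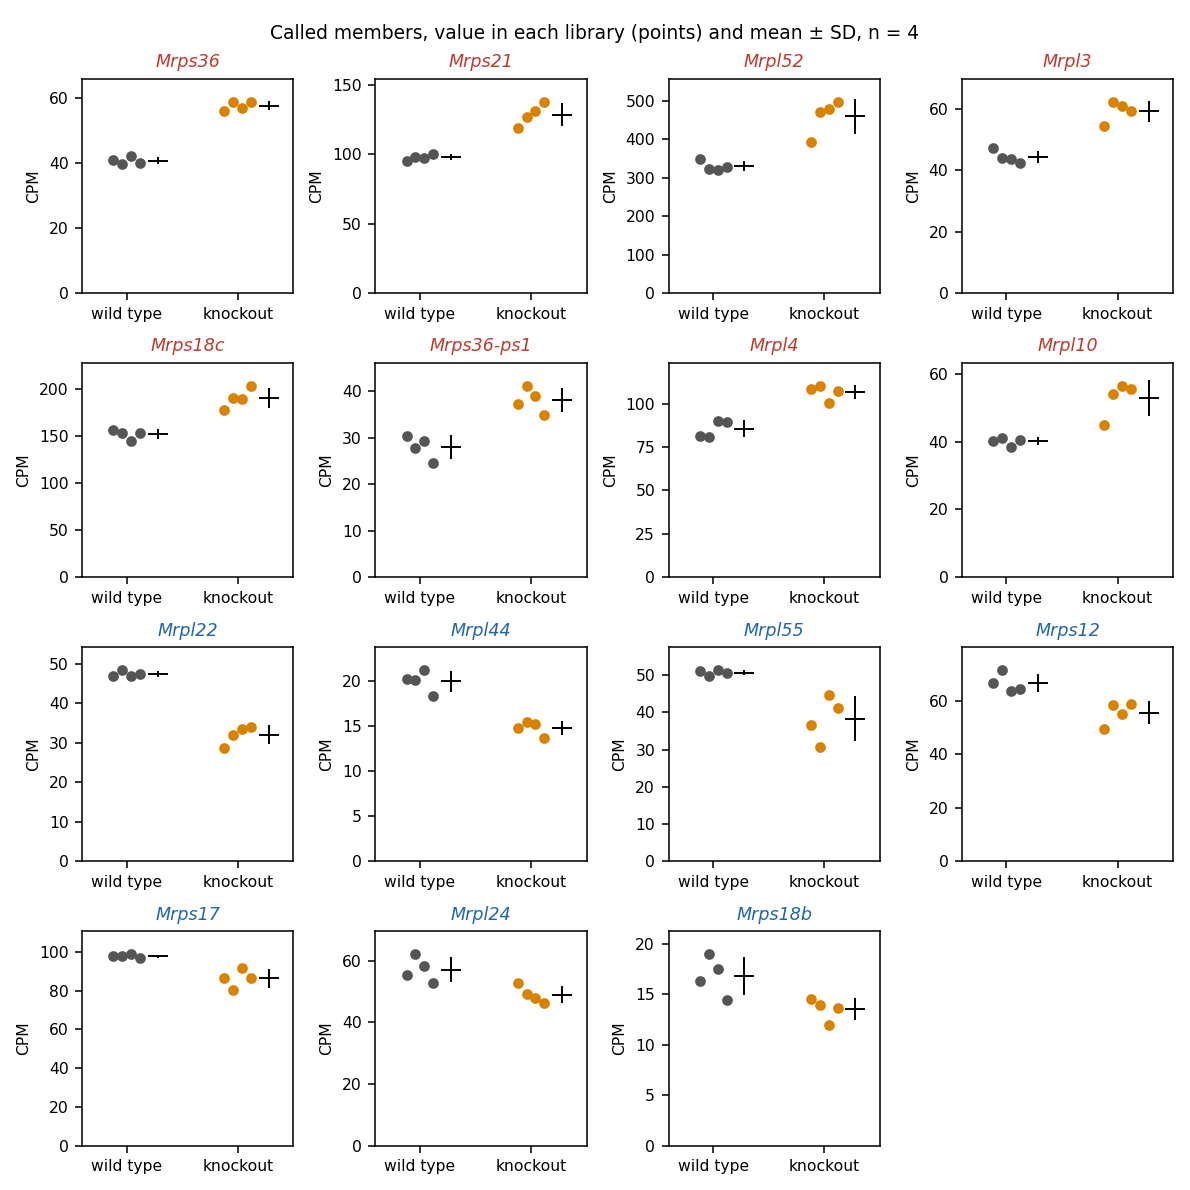
CPM in each library (points) and mean ± SD for the 8 members called higher (red names) and the 7 called lower (blue names) with the smallest adjusted p, each axis from 0. In all 8 of the first kind the knockout points lie above the wild type points. In the second kind they lie below for 5 members, and the groups overlap for Mrpl24 and Mrps18b.

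Another 17 members were called higher, each with all knockout values above all wild type values. In the large subunit the log2 fold changes were 0.39 for Mrpl19, 0.34 for Mrpl1, 0.29 for Mrpl54, 0.28 for Mrpl14 and 0.26 for Mrpl36. They were 0.24 for Mrpl20, 0.23 for Mrpl30, 0.22 for Mrpl28, 0.19 for Mrpl53, 0.19 for Mrps18a and 0.19 for Mrpl37. Mrpl1 belongs to the stalk on the side where spent tRNA leaves, and Mrpl37, Mrpl53 and Mrpl54 have no bacterial counterpart. In the small subunit the values were 0.27 for Mrps9, 0.27 for Mrps24, 0.26 for Mrps11, 0.24 for Mrps22, 0.23 for Mrps16 and 0.21 for Mrps15. Mrps24 is the relative of bacterial S3 at the entry of the messenger RNA, and Mrps11 lies in the platform. Of these 17, Mrpl19, Mrpl14, Mrpl36, Mrpl53, Mrps18a, Mrps24 and Mrps11 overlap another listed gene and Mrpl30 has a near-identical listed copy, which makes their values less certain. Their limma adjusted p ran from 0.00437 for Mrpl14 to 0.0424 for Mrps18a.

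Mrpl22 had the largest negative difference of all members. Its bacterial relative lines the tunnel through which the nascent chain leaves, and its level was 46.8, 48.4, 47.1 and 47.4 CPM in wild type lungs and 28.7, 32, 33.5 and 34 CPM in the knockout. The highest knockout value was well below the lowest wild type value, and the log2 fold change was -0.56 (SE 0.07, adjusted p = 0.000223). Mrpl44, a protein of the large subunit with a fold related to RNase III, was at 20.3, 20.2, 21.2 and 18.4 CPM in wild type lungs and 14.8, 15.5, 15.2 and 13.7 CPM in the knockout. The groups did not overlap, with a log2 fold change of -0.42 (SE 0.08, adjusted p = 0.00261). Mrpl55, a large subunit protein of the mitochondrial lineage, was at 51, 49.8, 51.3 and 50.5 CPM in wild type lungs and 36.6, 30.8, 44.7 and 41.3 CPM in the knockout. The wild type values were nearly equal whereas the knockout values spread, and the log2 fold change was -0.41 (SE 0.10, adjusted p = 0.0107). Mrpl24, near the tunnel exit in the bacterial ribosome, had 55.5, 62.1, 58.4 and 52.7 CPM in wild type lungs and 52.7, 49.1, 47.8 and 46.3 CPM in the knockout. The value of wild type library 4 was just under that of knockout library 1, so the groups overlapped; the gene also overlaps Rrnad1. The log2 fold change was -0.22 (SE 0.07, adjusted p = 0.0363).

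In the small subunit Mrps12, whose bacterial relative S12 sits at the decoding centre, was at 66.7, 71.4, 63.6 and 64.6 CPM in wild type lungs and 49.6, 58.6, 55.2 and 58.7 CPM in the knockout. All knockout values were lower, and the log2 fold change was -0.26 (SE 0.07, adjusted p = 0.0178). Mrps17 was at 97.8, 97.8, 98.8 and 97 CPM in wild type lungs and 86.8, 80.3, 91.8 and 86.7 CPM in the knockout. The wild type values were nearly equal, all knockout values lay below them, and the log2 fold change was -0.18 (SE 0.06, adjusted p = 0.0349). Mrps18b was at 16.3, 19, 17.5 and 14.5 CPM in wild type lungs and 14.5, 13.9, 12 and 13.7 CPM in the knockout. Wild type library 4 lay just below knockout library 1, so the groups overlapped, and the log2 fold change was -0.30 (SE 0.10, adjusted p = 0.0397).

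Part of the calls ended when 1 library was left out, and fewer samples entered each such fit. Over all genes the share called higher in these fits ran from 12.4% to 17%, against 16.6% with all libraries. Of the 32 called members 17 kept the call with each library left out in turn, among them the 8 higher members with the smallest adjusted p and Mrpl22, Mrpl44 and Mrpl55. The call of Mrps12 ended without wild type library 2 (adjusted p = 0.0575). That of Mrps17 ended without any 1 library but knockout library 3, with the highest adjusted p = 0.0829 without knockout library 2. Mrpl24 (highest adjusted p = 0.107) was lost without wild type libraries 1, 2 or 3 or knockout libraries 2, 3 or 4, as was Mrps18b (0.115). Mrpl1 was lost without wild type library 3 (adjusted p = 0.0536) and Mrpl30 without knockout library 3 (0.0533). Mrps11 was lost without wild type library 2 (adjusted p = 0.0522) or knockout library 3 (0.0563). Mrps15 was lost without wild type libraries 1 or 4 or knockout libraries 2 or 3, with adjusted p up to 0.0765. Mrps9 (adjusted p up to 0.0729) was lost without wild type libraries 1, 3 or 4 or knockout libraries 3 or 4, and Mrpl53 (0.0765) without wild type libraries 1, 2 or 4 or knockout libraries 3 or 4. Mrps22 (adjusted p up to 0.111) and Mrps18a (0.106) were lost without any 1 wild type library or without knockout libraries 2 or 3. Mrpl28 (adjusted p up to 0.111) was lost without any 1 library but knockout library 4, and Mrps16 (0.0959) and Mrpl37 (0.0941) without any 1 but knockout library 1. Without knockout library 3, 15 members in place of 25 were called higher, while over all genes the share called higher was 12.4% in place of 16.6%.

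Mrpl33, a large subunit protein with a bacterial relative, was the second most abundant of all members and was not called. It had 315, 308, 324 and 331 CPM in wild type lungs and 262, 253, 430.2 and 289 CPM in the knockout. Knockout library 3 stood above every other library while the other 3 knockout libraries lay below all wild type libraries. Over all libraries the log2 fold change was -0.08 (SE 0.14, adjusted p = 0.678), and without knockout library 3 it was -0.25 with an adjusted p of 0.0217. Next in level was Mrpl23-ps1 with means of 185 ± 7.61 and 203 ± 6.89 CPM in the wild type and knockout groups, all knockout values above all wild type values and an adjusted p of 0.0854. Mrpl23, the tunnel exit protein after which that pseudogene is named, was among the 3 lowest members with means of 11.4 ± 1.19 and 12.7 ± 0.74 CPM, so most reads of this pair were listed under the pseudogene's symbol. Their sum was 196 ± 7.32 CPM in wild type lungs and 216 ± 7.18 CPM in the knockout. The other 2 lowest members were Mrps33 with means of 7.28 ± 1.68 and 7.44 ± 0.466 CPM and Mrpl47 with 7.96 ± 1.18 and 8.51 ± 0.688 CPM, and neither was called. Mrps34 was below all wild type values in every knockout library without a call (-0.12, adjusted p = 0.143).

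Other members gained a call with 1 library left out. Mrps30 (log2 fold change -0.26, adjusted p = 0.0479) and Mrps5 (-0.40, 0.0326) were called lower without wild type library 4, and Mrpl16 (-0.35, 0.0241) without knockout library 1. Mrpl27 was called higher without knockout library 1 (0.29, adjusted p = 0.0398) and Mrps6 without wild type library 3 (0.36, 0.0245). The listed values of Mrps6 were identical to those of Slc5a3, a transporter gene with which it shares a locus, so they cannot be assigned to Mrps6.

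Members with a higher level were more often called higher, though no trend was tested. The 26 members with the highest mean level (60.7 to 395 CPM) had 11 called higher and 2 lower, with a median log2 fold change of 0.12. Of all genes at those levels 27% were called higher and 12.4% lower, with a median of 0.07. Of the middle 26 (33.6 to 60.7 CPM) 8 were called higher and 3 lower with a median of 0.08, against 20.7% and 13.7% of genes and a median of 0.04. Of the lowest 26 (7.36 to 33.6 CPM) 6 were called higher and 2 lower with a median of 0.06, against 13.8% and 15.2% and a median of -0.01. At the levels of the middle and highest 26, genes as a whole were thus also called higher more often than lower. The coefficient of variation between libraries had a median of 5.10% over members in wild type and 6.04% in the knockout. For all genes tested at or above the level of the lowest member the medians were 7.49% and 9.03%.

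**Figure D4:**
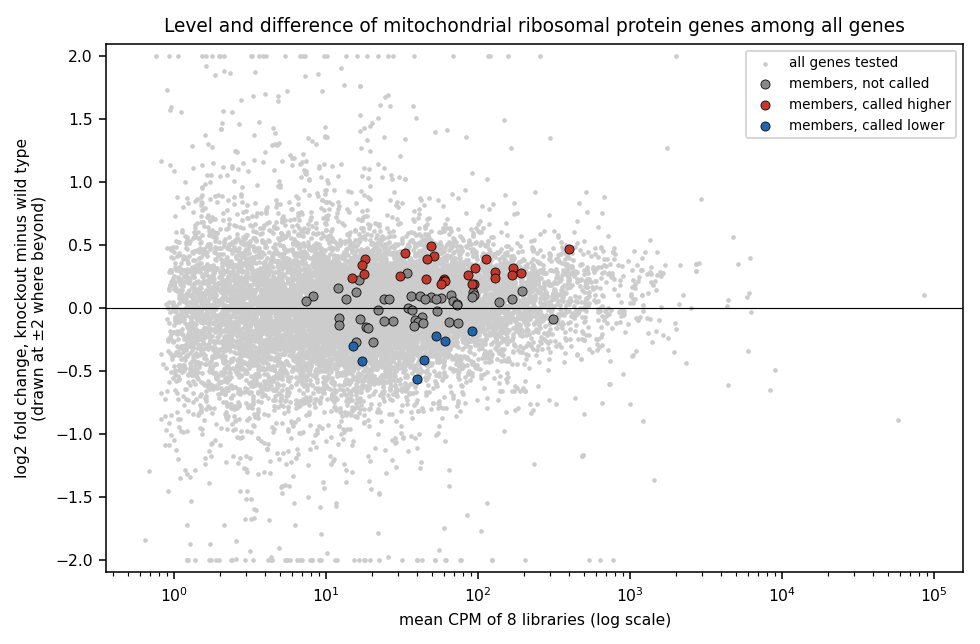
Log2 fold change (knockout minus wild type) against mean CPM of the 8 libraries on a log scale for all 14065 genes tested (light grey) and the 78 members (outlined), with genes beyond 2 in either direction drawn at 2. Members lie between 7.36 and 395 CPM in a narrow band from -0.56 to 0.50, with red points (called higher) towards the higher levels.

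By descent, 47 proteins of the 2 subunits have a bacterial counterpart and 28 do not. Of the first 18 were called higher and 5 lower with a median log2 fold change of 0.10, and of the second 5 were called higher and 2 lower with a median of 0.07. No test of that difference was made. A group of 33 members overlapped another listed gene or had a near-identical copy of the transcript's start, and the other 45 did neither. Among the 45, 14 were called higher and 4 lower with a median of 0.08, and among the 33, 11 were called higher and 3 lower with a median of 0.09. All these counts stand beside 16.6% of all genes tested called higher and 14.3% called lower.

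For 24 members a listed gene on the other strand started within 1000 bases, at a median distance of 91.5 bases between starts. The neighbour pointed away from the member, or its start lay a short way inside the member so that both overlapped. Member and neighbour differed in the same direction in 10 of these 24 pairs. Over all 24 pairs 8 neighbours were called higher and 3 lower, beside 16.6% and 14.3% of all genes tested. Of the 8 members called higher in such a pair, 2 had a neighbour called higher, 1 a neighbour called lower and 5 a neighbour not called. Mrpl36 stood beside Ndufs6, a subunit of respiratory complex I, which was also higher (0.29, adjusted p = 0.00845); the 2 genes overlap. Mrps18c stood beside the helicase gene Helq, likewise higher (0.29, adjusted p = 0.0452). Helq lost this call in 11 of 17 alternatives: without any 1 library, without a filter, in the replicate block fit and with DESeq2 (adjusted p = 0.121, the highest). Mrpl10 was higher while Lrrc46 was lower (-0.76, adjusted p = 0.00494).

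The 4 members called lower in such a pair had neighbours in all 3 classes, beside the same 16.6% and 14.3% of all genes tested. Mrpl44 was lower while Wdfy1, an adaptor of Toll-like receptor signalling, was at 13.3 ± 1.89 CPM in wild type lungs and 34.8 ± 3.22 CPM in the knockout (log2 fold change 1.36, adjusted p = 9.08e-06). These 2 genes overlap. Mrpl55 was lower together with 2610507I01Rik, a gene known only by its clone name, which was at 21.7 ± 2.89 CPM in wild type lungs and 1.17 ± 0.37 CPM in the knockout (-3.75, adjusted p = 3.3e-08). Mrps18b was lower while Ppp1r10 was higher (0.29, adjusted p = 0.043). Ppp1r10 lost its call in 7 of 17 alternatives: the replicate block, any 1 wild type library left out, and knockout library 2 or 3 left out (adjusted p up to 0.121). Mrps12 was lower beside Sars2, the mitochondrial seryl-tRNA synthetase, with a log2 fold change of 0.15 (adjusted p = 0.373). Since no source used here gives the authors' use of strand, reads of overlapping neighbours could be counted with either.

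**Figure D5:**
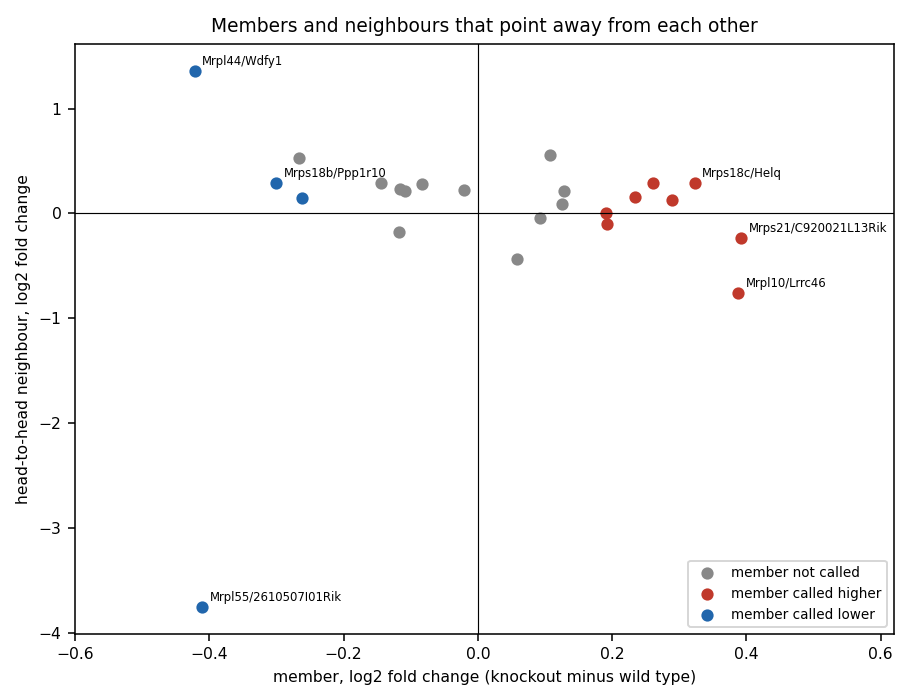
Log2 fold change (knockout minus wild type) of 24 members (horizontal axis) against that of the head-to-head neighbour (vertical axis). The neighbour starts within 1000 bases on the other strand and points away or overlaps the member's start. Names are given for pairs with a member beyond 0.3 or a neighbour beyond 0.6 in either direction, and the point for Mrpl55 and 2610507I01Rik at -3.75 lies furthest from 0.

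Further mitoribosomal proteins carry other symbols. Of 7 listed, limma called 2 higher and 0 lower, and edgeR, DESeq2 and the unadjusted p under 0.05 also gave 2 and 0. Chchd1, a small subunit protein, was at 167 ± 5.58 and 200.5 ± 8.62 CPM (0.26, adjusted p = 0.00528) and Mrp63, of the large subunit, at 125 ± 4.28 and 144 ± 2.65 CPM (0.20, adjusted p = 0.0128), each in wild type and knockout in that order. With quantile normalization the call of Mrp63 was lost (adjusted p = 0.0522). Dap3, which binds GTP in the small subunit, had a log2 fold change of -0.07 (adjusted p = 0.647).

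Genes that build and use the mitoribosome were called in both directions. Of 25 rows for assembly and rRNA modification, in which Nsun4 has 2, 4 were higher and 1 lower, with a median log2 fold change of -0.02. With edgeR 3 were higher and 1 lower, and with DESeq2 2 and 1. Rnmtl1, a methyltransferase of the large ribosomal RNA, was higher by 0.61 (adjusted p = 0.00276) and Trub2, a pseudouridine synthase, by 0.49 (adjusted p = 0.00486). Mpv17l2, a membrane protein needed for assembly, was lower (-0.33, adjusted p = 0.00675). Among 14 translation factors limma called 2 higher and 0 lower, with a median of 0.11. At an unadjusted p under 0.05 these counts were 7 and 1, while edgeR called 4 higher and 0 lower and DESeq2 3 and 0. Oxa1l, which inserts the new chains into the inner membrane, was higher by 0.37 (adjusted p = 0.00133) and Gfm2, a recycling factor, by 0.36 (adjusted p = 0.00485). Of 22 genes for mitochondrial tRNA charging 3 were higher and 2 lower, with a median of 0.05; edgeR gave 3 and 3 and DESeq2 3 and 2. Cars2 was higher by 0.39 (adjusted p = 0.00432) and Wars2 by 0.37 (adjusted p = 0.0119), while Kars, which serves both cytosol and mitochondria, was lower (-0.37, adjusted p = 0.0134).

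Of 8 genes that copy and transcribe mitochondrial DNA limma called 3 higher and 0 lower, with a median log2 fold change of 0.15. The counts were 3 and 0 at an unadjusted p under 0.05 and with edgeR, and 2 and 0 with DESeq2. Tfam, which packages and activates mitochondrial DNA, was at 23.5 ± 2.25 and 29.4 ± 0.766 CPM in wild type lungs and knockout (0.32, adjusted p = 0.0101). Ssbp1, the single-strand binding protein, was higher by 0.21 (adjusted p = 0.0223) and the transcription factor gene Tfb2m by 0.26 (adjusted p = 0.0286). The call of Ssbp1 ended without wild type library 4 or knockout library 3 and with quantile normalization (adjusted p up to 0.0945). That of Tfb2m ended with DESeq2 (0.0633) and without wild type libraries 1, 2 or 4 or knockout libraries 1, 3 or 4 (adjusted p up to 0.0781). The background shares of 16.6% higher and 14.3% lower hold for these lists too. Genes encoded by mitochondrial DNA were not analysed here.

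Markers of cells in the lung and of tissues rich in mitochondria moved as well. Sftpc, the surfactant gene of alveolar type 2 cells, was at 75406 ± 7581 CPM in wild type lungs and 40739 ± 4973 CPM in the knockout, and CPM are shares of a fixed total. Its call ended with quantile normalization (adjusted p = 0.171) and in no other of the 17 alternatives. That scaling gives every library the same set of values, which can take away the difference of a gene at so high a level. The 4 alveolar epithelial markers (Sftpc, Sftpb, Ager and Hopx) summed to 73728 to 89726 CPM in wild type lungs. In the knockout they summed to 44190 to 56177 CPM, with 1 of them higher and 1 lower. Sftpc made up most of these sums and was the 1 called lower. Hopx was higher (4555 ± 269 and 5804 ± 236 CPM, adjusted p = 0.00308), and Sftpb and Ager were not called. Of the 4 brown adipose markers chosen, Ucp1 was not among the listed genes. Cox8b was higher (31.8 ± 5.22 and 56.3 ± 6.07 CPM, adjusted p = 0.000442) and Cox7a1 and Cidea were not called. The 3 listed markers summed to 67.7 to 97.5 CPM in wild type lungs and 106.6 to 124.1 CPM in the knockout. Cidea was at only 2.26 ± 0.529 and 2.44 ± 0.71 CPM, so nearly all of this sum came from Cox8b and Cox7a1. Whether the sum stood for brown adipose tissue was not tested. Of 6 heart muscle markers Myh6 was higher (28.2 ± 6.84 and 48.1 ± 9.94 CPM, adjusted p = 0.00835). Nppa was lower and almost absent from the knockout (63.1 ± 25.1 and 0.07 ± 0.06 CPM, log2 fold change -6.70, adjusted p = 1.81e-08). The other 4 were not called or not tested, and the 6 summed to 315 to 505 and 284 to 461 CPM. For blood and leukocytes the 4 markers summed to 7297 to 14418 and 6189 to 9157 CPM, with 2 higher and 1 lower. Nearly all of that sum was Hbb-b1, which was not called (10575 ± 3070 and 7378.5 ± 1362 CPM, adjusted p = 0.0751). Ptprc, the leukocyte marker, was higher (43.4 ± 2.83 and 53.3 ± 4.72 CPM, adjusted p = 0.0155). Hba-a1 was also higher (0.72, adjusted p = 0.0153), and Alas2 was lower (-0.60, adjusted p = 0.0138).

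Of the 2 airway markers Foxj1, which drives the making of motile cilia, was at 82.4, 82.4, 90.2 and 85.4 CPM in wild type libraries and 56.6, 47.8, 47.7 and 54.8 CPM in the knockout (-0.72, adjusted p = 6.09e-05). All 4 knockout values lay below those of wild type. Scgb1a1, the secretory cell marker, was not called, and the 2 summed to 77548 to 97635 and 75104 to 103210 CPM. Of the 3 skeletal muscle markers chosen, Acta1 and Myh4 were not among the listed genes. Ckm, the 1 tested, was lower at 8.66 ± 2.8 and 4.71 ± 0.963 CPM (-0.78, adjusted p = 0.0151). Whether Ckm stood for skeletal muscle here was not tested. Cdh5, 1 of 3 endothelial markers, was higher by 0.26 (adjusted p = 0.0426). Its call ended without wild type libraries 1, 2 or 4 or knockout libraries 2 or 3 (adjusted p up to 0.112). Pecam1 was not called (0.10, adjusted p = 0.34), and Cldn5 went the other way without a call (-0.18, adjusted p = 0.0554). Cldn5 was called lower in 6 of 17 alternatives, among them edgeR (adjusted p = 0.0306) and DESeq2 (0.00948). Plin1, 1 of 3 adipose markers, was lower (-0.69, adjusted p = 0.0438); this call ended with quantile normalization, in the replicate block fit, and without wild type libraries 1, 2 or 3 or knockout libraries 2, 3 or 4 (adjusted p up to 0.12). The endothelial sums were 904 to 1006 and 910.4 to 1039.1 CPM, those of adipose markers 11.6 to 25.2 and 11.7 to 17.9 CPM. Top2a and Mki67, markers of dividing cells, had adjusted p = 0.173 and 0.163 and summed to 3.71 to 4.91 and 2.91 to 9.33 CPM. Without knockout library 1 both were called higher (adjusted p = 0.000933 and 0.0122). Top2a was at 2.38 CPM in that library and at 6.61 to 7.1 CPM in the other knockout libraries.

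The part of these marker shifts, and of the fixed total, in the members' differences was not tested. With median-ratio scaling 26 members were called higher and 8 lower, beside 15.9% of all genes higher and 16.9% lower.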

How the data were processed

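Lung RNA of 8 mice was profiled by CAGE. The labels describe cap trapping of RNA with an integrity number over 7.0, bar codes and 1 run of 75 nt single-end reads for all libraries. Software named in the submitters' processing notes is HISAT2 2.0.5, BWA 0.7.12-r1039 and edgeR, with mm9 as build. No source used here tells how tags were assigned to genes, by which annotation or whether by strand. The values deposited by the authors are CPM for 15728 genes. They were whole multiples of 1 read in each library (100% within 0.1 reads), which gave the totals and the reads used for edgeR 4.0.16 and DESeq2 1.42.0 as alternatives. The count of 3 reads as a floor covers counting error only.

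The 14065 genes that reached 1 CPM in 4 or more of the 8 libraries were fitted by limma 3.58.1 (R 4.3.3, trended variance) to genotype alone on the log2(CPM + 0.5) scale. Tests were two-sided, with Benjamini-Hochberg adjustment over all these genes. Fold changes on this scale understate the change of low genes. Adjusted p are from this fit unless another tool is named. The method was tested on simulated data. The members and lists were chosen with earlier results of these data known. Every called member is named, with all 8 values for the 8 with the smallest adjusted p in each direction, also the 3 highest and 3 lowest members and up to 3 called genes of other lists. Mrpl12, Dap3, Mrps34, Mrps6, the head-to-head neighbours and the members that gain a call were named after their values were seen. Mrpl55 stood among members with a bacterial counterpart in the list as first written and was moved on general knowledge; the unmoved counts were 18 higher and 6 lower of 48, and 5 higher and 1 lower of 27.

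GENCODE M21 (GRCm38) gave overlaps, head-to-head neighbours within 1000 bases and copies: at least 97% identity over at least 75 nt of the first 200 nt of a transcript, by blastn 2.17.0. It held 77 members by identifier and Mrpl33 by symbol. Promoters are from RefSeq on GRCm38.p6.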

Additional observations from a re-analysis of the deposited data

Results flagged for a closer look

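In 5 of 162 groups of 4 libraries 1 value stood apart from the other 3, its gap to the nearest being beyond the critical value of Dixon's test, where chance gives about 1 group in 20. Wild type library 4 gave Mrps18a at 78.98 CPM, against 86.67 to 88.04 CPM in the others of its genotype. It also had the lowest summed level of all members, 4669 CPM against 4810 to 4836 CPM, and of the large subunit genes, 3114 CPM against 3182 to 3193 CPM. Wild type library 3 gave Mrpl32 at 80.49 CPM, against 90.61 to 92.4 CPM. Knockout library 1 gave Mrpl23 at 13.84 CPM, against 12.28 to 12.45 CPM.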

How the results depend on the processing

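The counts of 25 members called higher and 7 called lower held within 1.5 times under another pseudocount, filter or scaling: 22 (quantile normalization) to 26 (median-ratio scaling) higher and 7 to 8 lower. They were 25 and 8 with edgeR and with DESeq2 on recovered reads. With 1 library left out, 15 to 25 were called higher and 3 to 8 lower. The lower count was 4 without wild type library 1, 3 or knockout library 2 or 4 and 3 without wild type library 2, and the higher count was 15 without knockout library 3; fewer samples entered each fit. The median log2 fold change of members ran from 0.06 to 0.11 with 1 library left out. Without the 33 members with an overlap or copy, 14 of 45 were called higher and 4 lower, since fewer members are counted. Leaving out Mrps36 and the pseudogenes, an alternative chosen after seeing the data, gave 23 and 7 of 75.

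In the replicate block fit 25 members were called higher and 6 lower; Mrps18b (adjusted p = 0.055) and Mrps22 (0.0651) lost the call and Mrps6 gained one (0.0398). In their deviations from the genotype means, same-numbered libraries correlated at 0.04, 0.03, -0.003 and 0.06. Differently numbered libraries ran from -0.13 to 0.12. These values show no pairing by number, but a pairing by litter or handling cannot be told from them. DESeq2 lost Mrps22 (0.0859), and quantile normalization lost Mrps18a (0.0636), Mrpl37 (0.0513), Mrpl20 (0.0583) and Mrpl53 (0.085). Under edgeR, DESeq2 and median-ratio scaling Mrpl16 was called lower (0.0405, 0.0336 and 0.0367), and Mrps6 was called higher under DESeq2 (0.0468), median-ratio scaling (0.0474) and quantile normalization (0.0412). In all 16 of the 32 called members, 13 higher and 3 lower, kept the call under all 17 alternatives run, and 0 members reversed direction past the threshold. Depth was not varied: the lowest member was at 7.36 CPM, and the log2 standard error was 0.15 for Mrps33 and 0.12 for Mrpl47 against 0.05 for Mrpl17.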
